A study of Sus scrofa with 48 samples.

Results

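Expression of the paraoxonase genes PON1, PON2 and PON3, 3 of the 11288 genes named on the array, was described in longissimus muscle of 48 pigs. Probes were chosen by the gene name on the array, or by a description that held the symbol in brackets or the word paraoxonase, which found 12 of the 60305 probes. They were then selected on their own signal, since a probe was kept when the scanner software called it well above background on 12 or more arrays. This left 10 of the 12 probes, among 42125 on the whole array. The pigs came from 2 Large White lines bred in opposite directions for residual feed intake (RFI), the feed an animal eats beyond what its growth and maintenance predict. Those of the low RFI line (labelled RFIneg) and of the high RFI line (labelled RFIpl) had free access to a diet high in fat and fiber (HF) or to a diet low in both (LF), with 12 pigs in each of the 4 groups, and the labels gave neither age nor sex. Each line is 1 selected population, and the labels named no sire or litter, so that line and family cannot be told apart.

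Paraoxonases are calcium-dependent hydrolases that open lactone rings, and PON1 also splits aryl esters and the oxon forms of organophosphate insecticides. PON1 and PON3 are best known as proteins made by the liver and carried in blood on high-density lipoprotein (HDL), whereas PON2 is made in most tissues and stays inside the cell, in mitochondria and the endoplasmic reticulum among other places. All 3 proteins are known for protecting lipids from oxidation. The 3 genes lie side by side in mammals.

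The names of the probes did not settle which of PON1 and PON3 they read. The bright probe A_72_P385478 is named PON1 on the array, but its accession is listed under PON3 in the RefSeq gene table. The probe O12638 is also named PON1, from the entry of the human protein. The probe A_72_P035606, whose accession is the PON1 entry of the pig, was well above background on 1 array of 48. The probe A_72_P020806, described as paraoxonase 3, was well above background on 0 arrays. These are the 2 probes that were not kept, and the 2 kept probes closest to the limit were A_72_P504977 with 13 arrays and A_72_P223547 with 15 arrays, both named PON3 with a PON3 accession. The accession of the third probe with that name, A_72_P182996, was not matched in the table. The values of A_72_P385478 and O12638 are therefore given below under the name on the array, without deciding between the genes. As the only probe listed under pig PON1 was not kept, a signal of PON1 itself was not shown.

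The sequences below are those of both kept probes named PON1, of 2 of the PON2 probes and of the pig PON1 probe that gave almost no signal, shown because the names leave their targets unsettled or because the PON2 difference was largest there. They are 60 bases long, printed 5′ to 3′ with the letters of the array files in lower case and no part marked.
A_72_P385478 (PON1 name, PON3 accession): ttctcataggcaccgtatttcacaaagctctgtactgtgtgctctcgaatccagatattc
O12638 (PON1 name): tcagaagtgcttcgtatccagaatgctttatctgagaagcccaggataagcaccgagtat
A_72_P035606 (PON1 name and accession, not kept): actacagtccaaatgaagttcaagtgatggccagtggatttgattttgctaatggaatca
A_72_P538923 (PON2): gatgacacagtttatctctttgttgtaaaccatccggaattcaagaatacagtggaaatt
A_72_P107711 (PON2): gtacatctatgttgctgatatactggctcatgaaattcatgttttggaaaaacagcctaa

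The 5 probes have a GC content between 35% and 45%. Among the 12 paraoxonase probes, the PON2 probes O9320 and A_72_P006641 share a run of 57 bases and are nearly the same measurement, whereas no other pair shares more than 8 bases. No other probe on the array shares a run of 18 bases with a paraoxonase probe, on either strand.

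The arrays had 1 colour, and levels are given as the log2 of the processed signal after the mean of the tested probes on the array was set to 0. The median processed signal of an array ranged from 52.8 to 107.9, the share of detected probes from 59.2% to 74.2%, and 0 spots were saturated. The number of arrays limits the precision. The 6 slides each held 2 arrays of every group. All 9 defining markers of skeletal muscle, such as ACTA1 and CKM, were well above background on all 48 arrays. The 5 hepatocyte markers on the array, ALB, TTR, FGA, FGB and AMBP, were well above background on 47, 31, 4, 15 and 34 arrays at their best probe, and none of the 5 on all arrays. Adipocyte and endothelial markers were present on all arrays. Because a muscle sample holds several cell types, fewer cells of a type and less RNA per cell cannot be told apart.

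The PON1-named probe A_72_P385478 had a lower mean in the high RFI line than in the low RFI line, with a difference of -2.50 on the log2 scale (standard error 0.43, n = 24 pigs per line). In LF-fed low RFI pigs its level had a lowest value of 2.21, a median of 3.35 and a highest value of 3.76. In HF-fed low RFI pigs the corresponding levels were -1.20, 2.16 and 3.58. Thus 23 of the 24 low RFI pigs had levels above 1, and 1 pig on the HF diet fell far below the rest. In LF-fed high RFI pigs the lowest, median and highest levels were -2.11, -0.91 and 2.58, and in HF-fed ones they were -2.57, 1.14 and 3.12. The lines overlapped, yet 23 of 24 high RFI pigs lay below the median of the low RFI line and 8 of 24 lay below its lowest pig. The standard deviation between pigs was 1.98 in the high RFI line and 1.06 in the low RFI line.

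**Figure D1:**
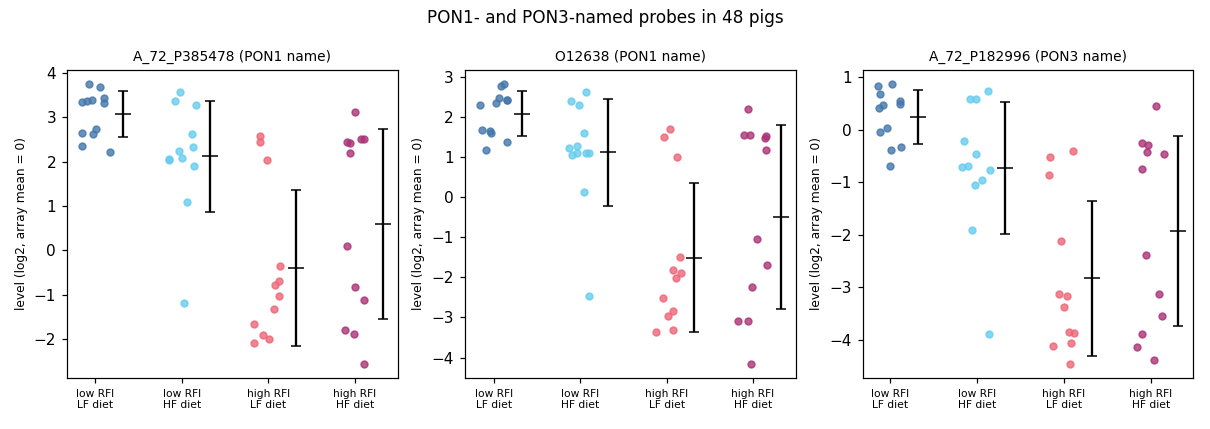
Level of 3 probes named PON1 or PON3 in each of the 48 pigs (log2 of the processed signal, mean of the array set to 0), by line and diet, with 12 pigs per group. Points are pigs, and the bars beside them are the mean ± SD. The high RFI groups are split into a high and a low set of pigs at all 3 probes, with 3 of 12 pigs in the high set on the LF diet and 6 of 12 on the HF diet.

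PON1 and PON3 were proposed for this description because their line differences were already known to be large, and their line differences are therefore given as values without a test. At O12638 the difference was -2.59 (standard error 0.46) and at the PON3-named probe A_72_P182996 it was -2.14 (standard error 0.38). The dim PON3-named probes gave -1.34 (standard error 0.32) at A_72_P504977 and -1.26 (standard error 0.33) at A_72_P223547. With normexp background correction these became -0.35 and -0.24, and that of A_72_P182996 became -1.26. All 5 probes thus had lower means in the high RFI line. The median over the 42125 tested probes was -0.03, and 16.4% of them differed between the lines at an adjusted p of 0.05, with 9.85% lower in the high RFI line and 6.57% higher.

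The 2 dim probes had most of their signal in the low RFI line. A_72_P504977 was well above background in 9 of 24 low RFI pigs and in 4 of 24 high RFI pigs, and A_72_P223547 in 12 of 24 and 3 of 24. They passed the limit of 12 arrays largely through the low RFI line, where they were higher, so that the direction at these probes follows in part from the way they were kept. On the LF diet, A_72_P504977 was not well above background in any of the 12 high RFI pigs. In LF-fed low RFI pigs it was well above background in 5 of 12. With the high RFI group set to the lowest signal counted as above background, the low RFI mean was 1.23-fold higher. This is not a lower bound, because most pigs of the low RFI group were not well above background either.

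On the LF diet the line difference of A_72_P385478 was -3.48 (standard error 0.61) and on the HF diet it was -1.53 (standard error 0.61). For O12638 the corresponding values were -3.58 and -1.60 (standard error 0.65 for each), and for A_72_P182996 they were -3.07 and -1.20 (standard error 0.54 for each). The 3 probes thus showed a numerically larger line difference on the LF diet. The test of that difference, the interaction of line and diet, was 1.95 for A_72_P385478 (standard error 0.87, unadjusted p = 0.0287), 1.98 for O12638 (standard error 0.92, unadjusted p = 0.0362) and 1.87 for A_72_P182996 (standard error 0.76, unadjusted p = 0.0176). With limma and Benjamini-Hochberg adjustment over all tested probes, the adjusted p was 0.999 for each, so that the line difference was not shown to depend on the diet. Of the 10 probes, 0 passed the adjusted threshold for the interaction in limma and in the variance analysis, and 3 had an unadjusted p under 0.05, whereas 0% of all probes passed the adjusted threshold and 4.45% were under the unadjusted one. These 3 probes are the ones above, with r between 0.974 and 0.998 after the group means, and do not count as 3 separate results.

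**Figure D2:**
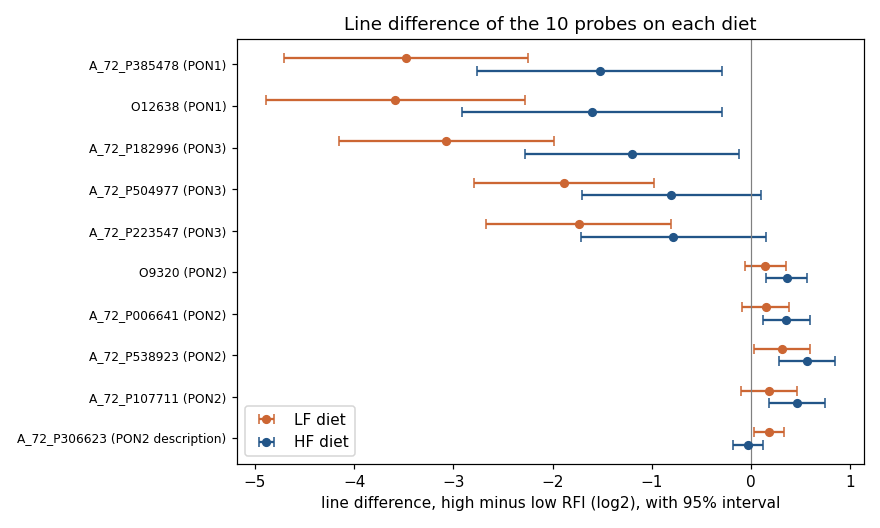
Line difference (high minus low RFI, log2) of the 10 paraoxonase probes on the LF diet and on the HF diet, with 12 pigs per line and diet. Points are the fitted differences and bars their 95% intervals. For the probes named PON1 or PON3, whose line differences were already known, the intervals are a description and not a test. The 5 probes named PON1 or PON3 lie below 0 on both diets, between -3.58 and -0.78, and the 4 probes named PON2 lie above 0, between 0.14 and 0.57.

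In the order of the group means of A_72_P385478, LF-fed low RFI pigs came first with 3.08 ± 0.53 (SD, n = 12), followed by HF-fed low RFI pigs with 2.12 ± 1.26, HF-fed high RFI pigs with 0.59 ± 2.14 and LF-fed high RFI pigs with -0.40 ± 1.75. From each group to the next the mean fell by 0.96, 1.53 and 0.996 (standard error 0.61 for each). This standard error rests on 1 spread shared by the 4 groups, although their SDs ranged from 0.53 to 2.14. In each step the SD of at least 1 of the groups was larger than the difference. The line difference was below 0 within each of the 6 slides for A_72_P385478, O12638, A_72_P182996 and A_72_P504977, and within 4 of 6 slides for the dim probe A_72_P223547. Within slides, it ranged from -4.38 to -0.52 for A_72_P385478 and from -2.78 to 0.23 for A_72_P223547. The slide values are parts of the line difference that was already known, and are a description rather than a separate test.

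The levels of A_72_P385478 left a wide gap inside their range. The largest gap between neighbouring values of the 48 pigs was 1.01, from 0.09 to 1.10, against a median step of 0.08. The second largest, 0.81, lay directly above it, from 1.10 to 1.91, so that 1 pig stood between the 2. As a share of the range the largest gap was 15.9%, near the 15.3% at the PON2 probe O9320. There, however, it set apart only 1 pig at the top. At A_72_P385478, 32 pigs lay above the largest gap and 16 pigs below it. All 12 LF-fed and 11 of 12 HF-fed pigs of the low RFI line were above it, whereas in the high RFI line 3 of 12 pigs on the LF diet and 6 of 12 on the HF diet were above it. The 9 high RFI pigs above the gap had levels between 2.04 and 3.12, within the range of the 23 low RFI pigs above it, from 1.10 to 3.76. The 15 high RFI pigs below the gap lay between -2.57 and 0.09, and the single low RFI pig below it at -1.20. The line difference of the means therefore came with a different number of pigs on each side of the gap. On each slide, 4 to 6 of the 8 pigs lay above the gap.

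The same pigs stood apart at the other bright probes. At O12638 the largest gap was 1.16, from -1.05 to 0.12, and it separated the same 32 and 16 pigs. At A_72_P182996 the 32 pigs lay between -1.92 and 0.88 and the 16 pigs between -4.46 and -2.12, with no overlap, although its own largest gap, 0.86, left 1 more pig on the low side. At the PON2 probe O9320, by contrast, the 2 sets overlapped, from 2.01 to 3.09 and from 2.09 to 3.35. These sets were read from the measured levels, are not groups of the study, and were not tested. The labels give no genotype of the pigs.

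**Figure D3:**
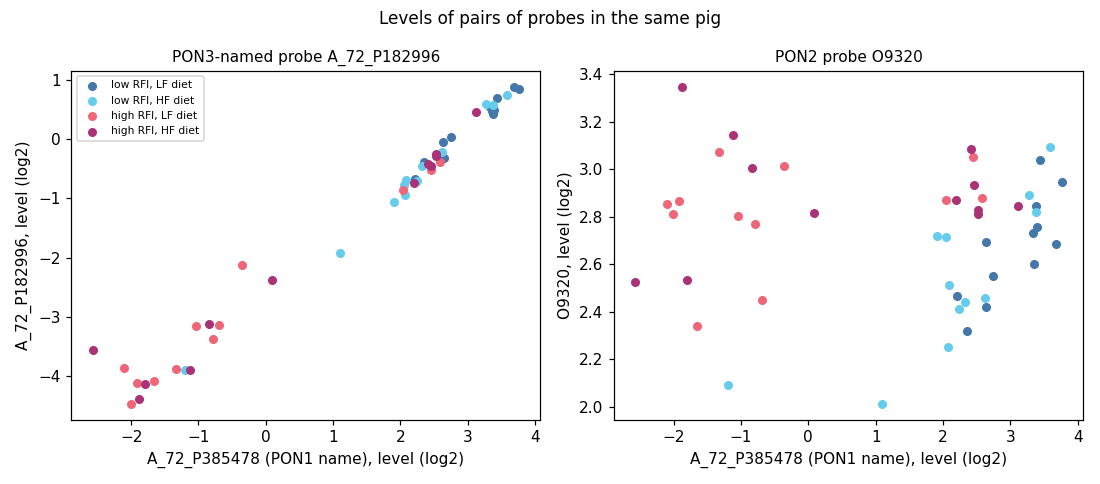
Level of the PON1-named probe A_72_P385478 (log2, horizontal axis) against the PON3-named probe A_72_P182996 (left) and the PON2 probe O9320 (right) in the same 48 pigs. Points are pigs, coloured by line and diet. The left panel forms a narrow band with a thinly filled stretch between the 16 low and 32 high pigs, and the right panel shows no common band for the lines.

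A_72_P385478 and A_72_P182996 rose and fell together over pigs. In the low RFI line Pearson's r was 0.995 and Spearman's rho 0.972 (n = 24, permutation p = 1e-05 for each, the smallest that 100000 permutations can give, two-sided). Among 6 relations, the adjusted p for r was 2e-05, and without the 2 pigs farthest from the median r was 0.989. As the high RFI pigs fell on both sides of the gap, r was computed within each side, and was 0.978 in the 9 pigs above it (exact permutation p = 0.000245) and 0.805 in the 15 pigs below it (permutation p = 0.00031). Adjusted over 9 relations within sides, these p-values were 0.000552 and 0.000558. After the group means were subtracted, r over all 48 pigs was 0.998 between A_72_P385478 and O12638, and between 0.75 and 0.79 for A_72_P504977 with the 3 bright probes, as a description. If A_72_P385478 reads PON3, as its accession says, these values compare probes of 1 gene.

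The PON2 probes differed in the other direction. All 4 probes named PON2 had higher levels in high RFI pigs, and limma with Benjamini-Hochberg adjustment over all tested probes placed each of them past the threshold, as it did 6.57% of all probes in that direction. Because O9320 and A_72_P006641 share most of their sequence, the 4 probes hold only 3 distinct sequences. All 4 are named for 1 gene and were read in the same pigs, with r between 0.74 and 0.95 after the group means. They do not count as separate results. The adjusted p-values ranged from 0.00188 to 0.0307. PON2 entered as a member of the family, and its tests do not stand apart from results already known.

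The difference was largest at A_72_P538923, with 0.44 (standard error 0.10, adjusted p = 0.00188, limma), which is 1.35-fold. The lowest, median and highest levels at this probe were -2.06, -1.50 and -0.82 in LF-fed low RFI pigs and -2.18, -1.75 and -0.81 in HF-fed ones. In high RFI pigs they were -1.55, -1.19 and -0.54 on LF and -1.63, -1.07 and -0.63 on HF. The lines overlapped, and 23 of the 24 high RFI pigs were above the median of the low RFI line. The largest gap at A_72_P538923 was 0.16, or 9.88% of its range, against 15.9% at A_72_P385478, and 5 pigs lay below it. At O9320 and A_72_P006641 the share was 15.3% and 15.7%, with 1 pig above the gap and 2 pigs below it in turn.

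At the bright probe O9320 the difference was 0.25 (standard error 0.07, adjusted p = 0.0132, limma), or 1.19-fold. The group means were 2.67 ± 0.21 and 2.53 ± 0.33 (SD, n = 12) in low RFI pigs fed LF and HF, and 2.82 ± 0.22 and 2.89 ± 0.23 in high RFI pigs. From the lowest mean to the highest, the neighbours differed by 0.14, 0.14 and 0.08, each less than the SD of the groups. The lowest, median and highest levels were 2.01, 2.64 and 3.09 over the low RFI line and 2.34, 2.86 and 3.35 over the high RFI line, so that the lines overlapped over most of their range. At A_72_P107711 the difference was 0.32 (standard error 0.10, adjusted p = 0.0220) and at A_72_P006641 it was 0.25 (standard error 0.08, adjusted p = 0.0307). Within slides, the difference of A_72_P538923 was above 0 on 6 of 6 slides, and those of the other 3 probes on 5 of 6.

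**Figure D4:**
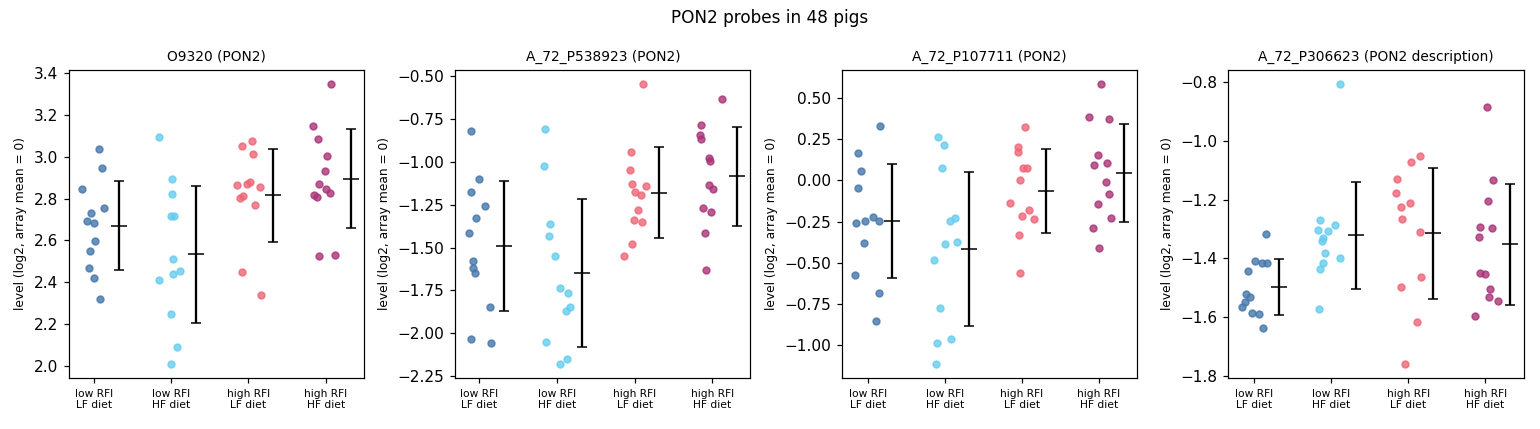
Level of 4 PON2 probes in each of the 48 pigs (log2 of the processed signal, mean of the array set to 0), by line and diet, with 12 pigs per group. Points are pigs and bars the mean ± SD. The 3 probes named PON2 are higher in the high RFI groups with wide overlap, and A_72_P306623, named PON2 only in its description, has a mean between -1.50 and -1.31 in all 4 groups. The vertical scales differ between panels.

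A_72_P306623, described as the cattle arylesterase 2, did not pass the test, with 0.08 (standard error 0.05, adjusted p = 0.342, 95% interval -0.03 to 0.18). Over pigs it followed the named PON2 probes weakly. After the group means were subtracted, r with the 4 named probes was between 0.05 and 0.19, whereas r among the named probes was between 0.74 and 0.95. It matched no PON2 entry by accession, so that the gene it reads rests on its description.

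On the HF diet, 3 of the 4 named PON2 probes were called higher in high RFI pigs (adjusted p between 0.0129 and 0.0404, where 2.36% of all probes were called higher), and A_72_P006641 had an adjusted p of 0.0560, which became 0.0359 with the slide as a block. On the LF diet, 0 of 4 passed in limma, with differences between 0.14 and 0.31 and adjusted p between 0.244 and 0.568, where 1.13% of all probes were called higher. There, 1 of 4, A_72_P538923, had an unadjusted p under 0.05, as did 16.5% of all probes, and the variance analysis called 0 of 4. The interaction of the 4 probes was between 0.21 and 0.28 with an adjusted p of 0.999, so that the diets were not shown to differ in the line difference.

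Neither diet contrast passed the test at any paraoxonase probe. Over both lines, 0 of the 10 probes were called by limma or by the variance analysis and 0 had an unadjusted p under 0.05. Of all tested probes, 0.42% were called and 13.1% had an unadjusted p under 0.05. The differences, HF minus LF, ranged from -0.24 at A_72_P223547 to 0.17 at A_72_P504977, with adjusted p between 0.636 and 0.993. For A_72_P385478 the difference was 0.02 with a 95% interval from -0.85 to 0.89, which leaves room for changes of nearly 1 on the log2 scale in both directions. For O9320 it was -0.03 (95% interval -0.17 to 0.12), and for A_72_P182996 -0.04 (95% interval -0.80 to 0.73). In the low RFI line, A_72_P385478 differed by -0.96 between the diets (adjusted p = 0.567), and in the high RFI line by 0.996 (adjusted p = 0.921). Both tests used 1 spread shared by the 4 groups. The SDs were 0.53 and 1.26 in the low RFI groups, and 1.75 and 2.14 in the high RFI groups. A test with the spread of the low RFI line alone was not run. In the low RFI line 0 of 10 probes were called by limma or by the variance analysis, against 0.199% of all probes, and 1, A_72_P306623, had an unadjusted p under 0.05, against 11.6%. In the high RFI line 0 of 10 were called by either and 0 had an unadjusted p under 0.05, against 0% and 5.47% of all probes.

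The PON2 probe O9320 and the PON1-named probe A_72_P385478 moved together in the low RFI line. Over its 24 pigs, r between A_72_P385478 and O9320 was 0.769 and rho 0.738, with an adjusted p of 3e-05 for r from permutation tests over 6 relations, and r was 0.715 without the 2 pigs farthest from the median. Between A_72_P182996 and O9320, r was 0.776 and rho 0.748, and r was 0.698 without 2 pigs. With both lines pooled after the group means were subtracted, r between A_72_P385478 and O9320 was 0.358 over 48 pigs, and 0.238 without 2 pigs. With the other named PON2 probes this pooled r was 0.204 at A_72_P538923, 0.270 at A_72_P107711 and 0.352 at A_72_P006641. Within the low RFI line, only O9320 was examined. The relation was seen on both scan days of the low RFI line, with r of 0.764 and 0.771 between A_72_P385478 and O9320 in 12 pigs each. Within diets, r was 0.788 on LF and 0.770 on HF. Slide was not taken into account, and on slide 1 the low RFI means were the highest at both probes, 3.41 and 2.94. How much of r lies between slides was not tested. Over the 24 high RFI pigs, r between A_72_P385478 and O9320 was 0.21 (permutation p = 0.325). It was -0.17 in the 9 pigs above the gap (exact permutation p = 0.622) and 0.14 in the 15 pigs below it (permutation p = 0.623). Whether the correlations of the lines differ was not tested.

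The genes around the cluster were set beside it, by their order in the pig gene table. PON1, PON3 and PON2 follow each other in this order, and the closest 8 protein-coding genes on each side were taken. Of these 16 genes, 11 had tested probes, 30 in all, with line differences between -0.29 and 0.58. The line contrast was passed by 4 of the 30 probes, or 13.3%, all 4 higher in high RFI pigs. Of all probes, 16.4% were called in both directions and 6.57% in that direction. The called probes were those of COL1A2 (collagen alpha-2 chain, 0.29 and 0.32), PEG10 (an imprinted gene derived from a retrotransposon, 0.48) and DYNC1I1 (a dynein intermediate chain, 0.37). The direct neighbours PPP1R9A and ASB4 differed by -0.14 (adjusted p = 0.114) and -0.06 (adjusted p = 0.800). PDK4, which inhibits pyruvate dehydrogenase and so spares glucose in muscle, had 11 probes with differences between -0.29 and 0.08. Over pigs, r of the 30 probes with A_72_P385478 after subtraction of the group means was between -0.34 and 0.28, so that none of them followed the PON1-named probes as the PON3-named probes did.

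**Figure D5:**
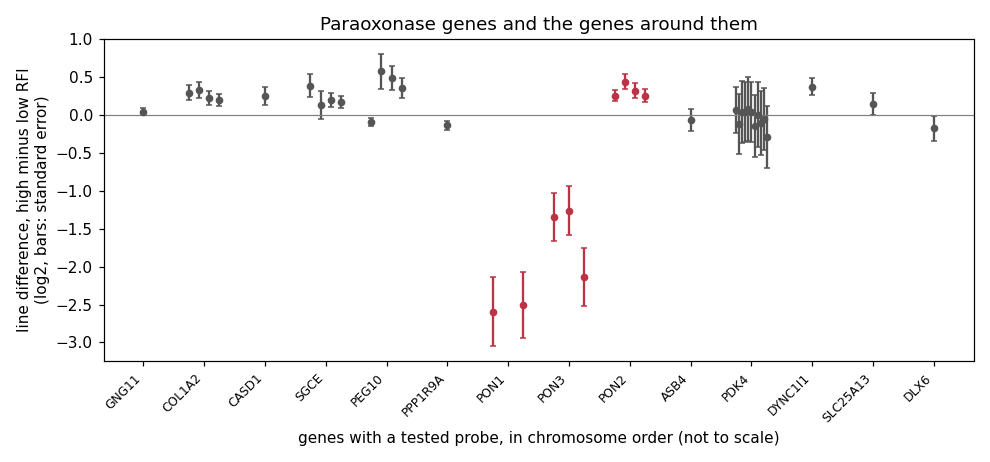
Line difference (high minus low RFI, log2) of every tested probe of PON1, PON3, PON2 and the genes around them, in chromosome order and not to scale, over 48 pigs. Points are probes and bars the standard error, with the paraoxonase genes in red. The 5 probes named PON1 or PON3 lie at -1.26 or below, and the neighbouring genes between -0.29 and 0.58.

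HDL carries PON1 and PON3 in blood, and its proteins and the transporters that load it were examined as a list. Of 60 tested probes for 21 of these genes, 3 were higher in high RFI pigs and 3 lower, or 10% against 16.4% of all probes, and the median difference was 0.04 against -0.03. LCAT, which esterifies HDL cholesterol, was higher by 0.93 at 1 dim probe (adjusted p = 0.000672) but by 0.14 at its other probe (adjusted p = 0.211). The chaperone clusterin (CLU) was higher by 0.85 (adjusted p = 0.00534) and the cholesterol exporter ABCA1 by 0.56 (adjusted p = 0.0104). APOA4, an apolipoprotein of chylomicrons and HDL, had a difference of -1.80 at 1 probe (adjusted p = 5.94e-07) and of 0.68 at another (adjusted p = 0.147), the HDL receptor SCARB1 differed by -0.26 at 1 of 5 tested probes (adjusted p = 0.0171) and by 0.01 to 0.25 at the others, which did not pass. The phospholipid transfer protein PLTP differed by -0.20 at 1 probe (adjusted p = 0.0480) and by 0.06 at the other (adjusted p = 0.524). The 4 probes of APOA1, the main HDL protein, differed by -0.16 to -0.07 and did not pass. On the diet contrast 1 probe was called, ABCA1, with -0.69 (adjusted p = 0.0320).

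Among other hydrolases of lactones and esters, 32 probes of 10 genes were tested, of which 1 was higher in high RFI pigs and 4 lower. CMBL, a hydrolase, differed by -0.37 (adjusted p = 8.99e-05) and by -0.34 at its other called probe. RGN, a calcium-binding lactonase, differed by -0.20 (adjusted p = 0.0122). The 2 called probes of BPHL, a serine hydrolase, went in opposite directions, 0.15 and -0.18. Of 5 transcription factors reported to act on PON1, with 13 probes, AHR was higher by 0.25 (adjusted p = 0.0394) and SP1 differed by -0.12 (adjusted p = 0.0288) at 1 probe each, and SREBF2 and PPARG had no probe past the threshold. Of the probes of the factors 15.4% and of those of the hydrolases 15.6% were called, near the 16.4% of all probes, and the lowest adjusted p for the diet was 0.357 and 0.328 in turn.

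Markers of other cell types were set beside these values, of which those of macrophages differed most often. Of 25 tested macrophage probes, 14 were higher in high RFI pigs and 0 lower, or 56% against 16.4% of all probes, with a median of 0.44, and CSF1R, the receptor of the macrophage growth factor, was higher by 0.94 (adjusted p = 0.00201), lysozyme (LYZ) by up to 1.68 and C1QB by 0.62 at 1 of its 2 probes, with -0.03 at the other. The summed level of the list was between 3.48 and 5.35 in the low RFI line and between 3.99 and 7.08 in the high RFI line, and its defining markers CD163, CSF1R and CD68 were well above background on 48, 35 and 28 arrays at their best probe. Over pigs, r of the 25 probes with the PON2 probe O9320 after the group means was between -0.20 and 0.17, and with A_72_P385478 between -0.17 and 0.11. Of 44 adipocyte probes, 10 were higher, or 22.7%, all of FABP4 (up to 0.61) and LIPE (0.33), and 0 lower, and the summed level was between 10.91 and 11.47 in the low and between 10.87 and 11.30 in the high RFI line. Of 19 endothelial probes, 2 were higher, or 10.5%, both of TEK (0.24 and 0.21), where 16.4% of all probes were called and 6.57% were higher. The summed endothelial level was between 5.76 and 6.60 in the low and between 5.64 and 6.66 in the high RFI line. The part of these cell types in the PON2 difference was not tested.

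Of 121 muscle fibre probes, 35 were lower in high RFI pigs and 0 higher, or 28.9% against 16.4% of all probes, with a median of -0.09. The largest called differences by gene were those of 1 probe each of MYLPF (-0.29), TTN (-0.26) and MYH4 (-0.25), whereas the other TTN probe had 0.75 (adjusted p = 0.155), and the summed level was between 16.20 and 16.67 in the low and between 16.01 and 16.51 in the high RFI line. Of 75 probes of liver secretory genes, 3 were lower and 0 higher, or 4% against 16.4% of all probes, namely 2 probes of SERPINA1 (-1.45 and -1.41, adjusted p = 0.00137 and 0.00239) and 1 of RBP4 (-0.19), whose other tested probes had 0.15 and 0.43 and did not pass. The 6 probes of haptoglobin (HP) had differences between 0.21 and 0.67 and did not pass either. The summed level of the liver list was between 5.97 and 7.99 in the low and between 6.05 and 7.33 in the high RFI line. Over pigs, r of the 75 liver probes with A_72_P385478 was between -0.36 and 0.25, and their part in the PON1 and PON3 values was not tested. The lowest adjusted p for the diet was 0.0506 in the fibre list and between 0.195 and 0.596 in the lists of other cell types.

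The genes whose levels followed each paraoxonase gene most closely over the 48 pigs were found after the group means were subtracted, among 19014 probes with a symbol. For A_72_P385478 the highest r were those of CIT (0.57), SAP30 (0.53), NFRKB (0.53), RIPK1 (0.53) and HSPE1 (0.50), and among the lowest were those of TAOK3 (-0.67), PKP4 (-0.59), ARPC3 (-0.58) and BTBD3 (-0.56). For A_72_P182996, 4 of the 5 highest, CIT, RIPK1, SAP30 and NFRKB, were among these genes, and KLF6 (0.52) was the other one. TAOK3, PKP4 and BTBD3 were again among the lowest, together with FBXO9 (-0.55). All of these lay far below the r of 0.98 between the 2 paraoxonase probes themselves.

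For PON2, read by O9320, other genes led. Among the highest r were those of HADHB (0.57), a subunit of the mitochondrial trifunctional protein of fatty acid oxidation, TMCC1 (0.55), SOD1 (0.55), the cytosolic superoxide dismutase, and ACADL (0.55), a dehydrogenase of fatty acid oxidation. The lowest were those of a locus without a gene name (-0.57) and of the ribosomal protein genes RPL6 (-0.57), RPS23 (-0.56), RPL22 (-0.55) and RPL34 (-0.55). These are the extremes of many correlations over the same 48 arrays, which share brightness and scan, and are given as a description.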

How the data were processed

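Longissimus muscle RNA of 48 pigs, 12 per line and diet, was labelled and hybridised to one-colour 60 K arrays. The deposited scanner values are spot intensities made by the authors with Agilent Feature Extraction 10.7.3.1, background subtracted, with flags per spot (deposited as scores of 0 or 1). The deposited table of log2 values was made by the authors and used as an alternative, and the submitters' processing notes name R 2.10.0. Outlier spots were removed, spots of a probe averaged, and the log2 processed signal centred on the mean of each array. Probes entered the tests when the software flagged them as above background on 12 arrays or more.

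The 4 group means were fitted with limma 3.58.1 in R 4.3.3, with Benjamini-Hochberg adjustment at 0.05 over 42125 probes. The step was tested on simulated data, drawn as independent normal values with 1 spread per probe for all groups. The bright PON1- and PON3-named probes were spread otherwise, so that this run does not show how the fit behaves there. Correlations were tested with 100000 permutations (scipy 1.17.1), or exactly under 10 pigs. Symbols were found for 38.2% of the probes. The members, lists and tests were chosen with earlier results of these data known. All paraoxonase probes were named, and in each list at most 3 called genes per direction, defining markers of other cell types, and the 5 highest and lowest correlated genes, a few of which are not reported here. Genes without a call, further probes of a named gene and the direct neighbours were added after their values were seen. Slides, 2 scan days, scaling, background, filter, outlier spots, the deposited table and the variance analysis of the methods were varied. P-values measure the spread between these pigs.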

Additional observations from a re-analysis of the deposited data

How the results depend on the processing

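The line differences of the PON1- and PON3-named probes kept their direction under every alternative run, but their size depended on the background correction. With normexp, the dim probes A_72_P223547 and A_72_P504977 gave -0.24 and -0.35, A_72_P182996 gave -1.26 and A_72_P385478 gave -2.13, and in the deposited table A_72_P182996 gave -1.56. Requiring signal on all 48 arrays left A_72_P385478 and the PON2 probes. Without a filter on dim probes, PON2 probe A_72_P006641 (0.26) had an adjusted p of 0.0643, and 1 of 4 PON2 probes instead of 3 was called on the HF diet. Without the brightest array, a choice made after seeing the data, the diet difference of A_72_P385478 turned from 0.02 to -0.10, with neither value past the threshold. The deposited table held 3 of the 4 PON2 probes, all called. Pooling both lines after the group means lowered r of A_72_P385478 with O9320 from 0.769 to 0.358 and of A_72_P182996 with O9320 from 0.776 to 0.362. Within the low RFI line the correlations stayed past the threshold by scan day, by diet, above the gap and after quantile normalization. No paired analysis was possible because the replicate numbers only follow the order of the samples and the titles pair no pigs, and slide as a block changed only the HF-diet count of called PON2 probes, from 3 to 4 of 4. Normexp and signal on all arrays also gave 4 there, and 2 of 3 passed in the deposited table. Signal over background limits the 2 dim PON3 probes.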
